A study of Homo sapiens with 6 samples.

Results

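The EGR transcription factors and the NAB proteins that restrain them were followed in HEK293 suspension cells making adeno-associated virus (AAV). Of the 6 genes EGR1, EGR2, EGR3, EGR4, NAB1 and NAB2, taken by symbol from the deposited expression table, 5 were among its 18164 genes, and the expression of EGR4 was not analysed here. HEK293 is a commercially available human embryonic kidney line that carries adenoviral E1 genes. Transfected cultures received a polymer-based reagent with a pair of plasmids for AAV synthesis and were harvested 18 h later. Untransfected cultures of the same line received PBS in place of DNA and reagent and were sampled at the same time, so effects of the plasmids, the reagent and virus production cannot be told apart. Each group had 3 libraries, and the labels do not say whether these came from separate cultures, so the spread between them may be partly technical. Levels are in TPM, transcript abundances scaled to 1 total per library, which correct for transcript length and let genes be set side by side. TPM keep no record of the number of reads, so depth is unknown.

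EGR1 to EGR4 are zinc finger factors that bind GC-rich sites and are switched on within minutes of growth factor, stress or calcium signals. Serum response factor (SRF) and its ternary complex partners, which ERK phosphorylates, drive much of this induction through CArG boxes near the transcript start. NAB1 and NAB2 bind EGR proteins and repress their targets, in part by recruiting the NuRD chromatin remodelling complex, and NAB2 is itself a known EGR target, which closes a feedback loop. EGR1 has been studied as a growth and stress response factor, EGR2 in hindbrain and myelinating Schwann cells, and EGR2 and EGR3 also in T cells.

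Promoter sequences, in which matches to such sites were sought, are shown first, because they set EGR1 and EGR2, whose levels differed widely, beside the NAB genes. They come from RefSeq on GRCh38.p14. Windows of 5 of the 6 genes were used, and the promoter of EGR3 was not examined here. Each full window holds the 250 bases before an annotated start, 5′ to 3′ on the strand of the gene. Capitals mark CArG boxes in the EGR genes and EGR sites in the NAB genes. The windows are EGR1 at chr5:138465229-138465478 on the plus strand, the third annotated start of EGR2 at chr10:62816367-62816616 on the minus strand, and the first of 3 annotated starts of NAB1 at chr2:190648645-190648894 on the plus strand. For NAB2 only the 29 bases around its site are given, at chr12:57089042-57089070 on the plus strand, since 220 bases of its window, these 29 included, lie in first exons of NAB2 in GENCODE 29. The printed EGR1, EGR2 and NAB1 windows hold 0 exon bases of their genes. The EGR1 window ends 12 bases before the GENCODE start of the gene, whereas the EGR2 and NAB1 windows begin 103284 and 1899 bases after theirs, since longer transcripts of both genes start further upstream.
EGR1: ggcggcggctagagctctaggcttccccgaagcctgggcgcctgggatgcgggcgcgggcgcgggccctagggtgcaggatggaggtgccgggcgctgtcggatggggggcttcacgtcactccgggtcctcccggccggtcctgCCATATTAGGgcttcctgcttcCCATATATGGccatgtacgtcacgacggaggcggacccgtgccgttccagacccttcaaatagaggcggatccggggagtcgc
EGR2: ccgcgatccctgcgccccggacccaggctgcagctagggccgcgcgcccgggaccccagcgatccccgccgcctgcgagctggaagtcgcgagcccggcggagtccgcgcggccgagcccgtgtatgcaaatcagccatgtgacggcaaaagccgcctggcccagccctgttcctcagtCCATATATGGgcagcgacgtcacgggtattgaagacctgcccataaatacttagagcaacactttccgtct
NAB1: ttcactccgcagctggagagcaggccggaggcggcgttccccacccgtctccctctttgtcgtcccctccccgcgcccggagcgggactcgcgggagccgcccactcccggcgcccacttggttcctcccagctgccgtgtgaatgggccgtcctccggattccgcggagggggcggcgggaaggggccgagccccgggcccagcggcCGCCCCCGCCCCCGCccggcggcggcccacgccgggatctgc
NAB2: tgtgcgtcctGCGGGGGCGgaggcgcgga

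Both strands were searched for the CArG box and for the EGR sites GCGTGGGCG and GCGGGGGCG. EGR1 had 2 CArG boxes, CCATATTAGG beginning 105 bases and CCATATATGG beginning 83 bases before the start. EGR2 had 1 CArG box, CCATATATGG, beginning 71 bases before the third of its annotated starts, and none at its other starts. The EGR4 and NAB windows had 0 CArG boxes. Among 35116 windows of the same length over all genes, 1.16% held at least 1 CArG box and 0.0313% held 2 or more. EGR sites lay in the NAB windows instead. NAB2 had 1 copy of GCGGGGGCG, beginning 62 bases before its start, and NAB1 had 2 copies on the opposite strand that overlap each other, beginning 42 and 36 bases before its first start. The window of the second NAB1 start overlaps the first, holds the same pair, and adds GCGTGGGCG beginning 175 bases before that start. The EGR1, EGR2 and EGR4 windows held 0 EGR sites, and 5.37% of all windows held at least 1. That share was not matched for GC content. The NAB windows with EGR sites were 78.0% to 81.2% GC, against a median of 58% over all windows. EGR1 and EGR4 were at 68.4% and 69.6%, and the 3 EGR2 windows at 54.8%, 78.0% and 66.0%. The cyclic AMP response half-site TGACG, searched on both strands, occurred 2 times each in EGR1, the third start of EGR2 and EGR4, and 1 time each at NAB1 starts 2 and 3. Over all windows, 21.2% held at least 1 copy and 4.76% held 2 or more. These matches describe letters in the windows and not occupied sites. Some windows that were not printed also reach into first exons of their genes in GENCODE 29. These hold 157 such bases for EGR4, 90 for the second NAB1 start and 99 for the third.

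**Figure D1:**
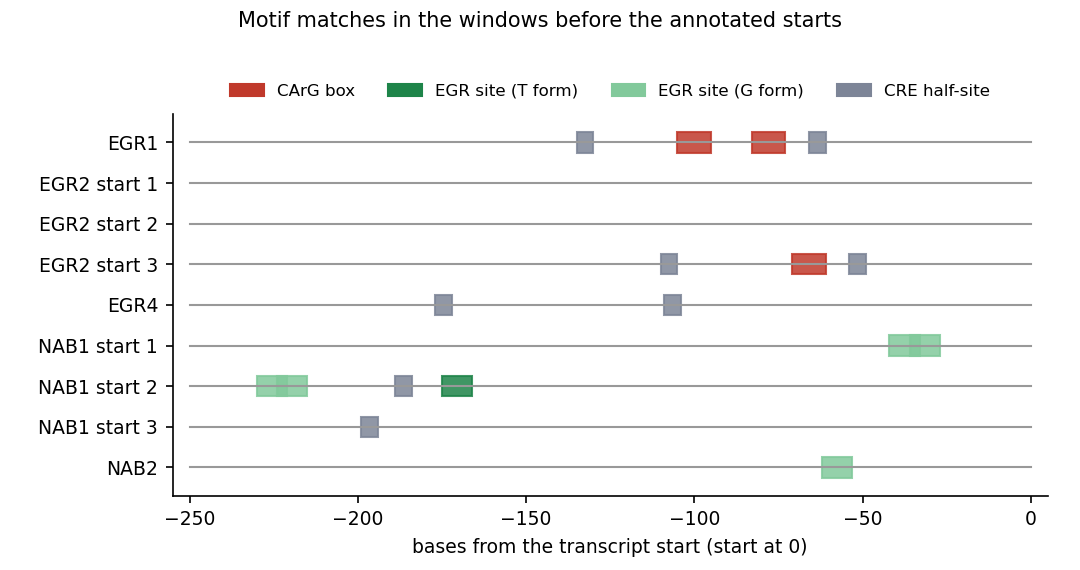
Positions of motif matches in the 250 bases before each annotated start of 5 EGR and NAB genes, in bases from the start. T form is GCGTGGGCG, G form is GCGGGGGCG and the CRE half-site is TGACG; CArG boxes lie in EGR1 and the third start of EGR2, and EGR sites in NAB1 and NAB2.

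Before the values, the libraries were compared. On the second principal component, with 16.6% of the variance, transfected replicate 1 (13.7) and untransfected replicate 3 (17.6) stood apart from the other 4 libraries (-12.2 to -5.3), whereas the first, with 63.7%, separated the groups. Transcripts of the mitochondrial genome (22 genes) made up 28.4% to 31.6% of TPM in transfected and 31.3% to 37.6% in untransfected libraries, with the highest share in untransfected replicate 3. Genes of the HEK293 line were present: 6 of 7 reached 1 TPM, with summed levels of 802 to 821 TPM with transfection and 636 to 688 TPM without it, and LHX1 was below it. Of markers of other cells, ALB was the only one of 3 liver markers listed, at 0.73 to 1.13 TPM with transfection and 0.05 to 0.21 TPM without it. Of 5 fibroblast markers, COL1A1, COL3A1 and LUM reached 1 TPM, with sums of 22.5 to 25.4 TPM with transfection and 27.8 to 31.9 TPM without it. Their part in the results was not tested.

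EGR1 had the highest level of the EGR genes in every library and the widest gap between the groups. The 6 genes were chosen by name with the TPM of the 2 groups in view, above all the higher EGR1 level in transfected cells, so their values are a description and no p-values are given for them. EGR1 (ENSG00000120738, GRCh38 chromosome 5, 138465490 to 138469315, plus strand) was at 77.55, 67.73 and 63.39 TPM in transfected replicates 1 to 3. In untransfected replicates 1 to 3 it was at 12.16, 15.57 and 15.98 TPM. Every transfected library thus lay above every untransfected one. In RNA from whole cultures, more EGR1 transcript per cell and more cells with the transcript cannot be told apart. The ratio of the group means was 4.77, and the closest pair of libraries across the groups still differed 3.97-fold. On the log2(TPM + 1) scale used for all fold changes here, the difference was 2.18 with a standard error (SE) of 0.115. EGR1 ranked 21 from the top among 16145 tested genes on that scale. Its place among all genes listed moved from the 50.9 to 58.6 percentile of TPM in untransfected libraries to the 86.3 to 89.8 percentile in transfected ones. With transfected replicate 1 and untransfected replicate 3 both removed, a choice made after seeing the data, the log2 fold was 2.17.

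EGR2 and EGR3, the paralogs with roles in nerve and T cells, were near the bottom of the listed genes in both groups. EGR2 (ENSG00000122877, chromosome 10, 62811996 to 62919900, minus strand) was at 0.71, 0.87 and 1.08 TPM in transfected replicates 1 to 3 and at 0.57, 0.69 and 0.72 TPM in untransfected replicates 1 to 3. The EGR2 groups overlapped, since transfected replicate 1 lay below untransfected replicate 3. EGR3 (ENSG00000179388, chromosome 8, 22687659 to 22693302, minus strand) was at 0.56, 0.57 and 0.69 TPM in transfected replicates 1 to 3 and at 0.32, 0.43 and 0.35 TPM in untransfected replicates 1 to 3. All 3 EGR3 values in transfected cells were above those in untransfected cells. Neither gene reached 1 TPM in at least 3 libraries, the minimum for testing. In a fit without that minimum their log2 folds were 0.18 (SE 0.0963) for EGR2 and 0.23 (SE 0.0763) for EGR3, which at such low levels understate the TPM ratios of 1.34 and 1.65. EGR1 made up 97.3% to 98.4% of the summed EGR1, EGR2 and EGR3 TPM in transfected libraries and 93.2% to 93.7% in untransfected ones.

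TPM of both co-repressor genes overlapped between the groups. NAB1 (ENSG00000138386, chromosome 2, 190646746 to 190692766, plus strand) was at 28.8, 34.26 and 35.17 TPM in transfected replicates 1 to 3 and at 43.85, 45.17 and 32.61 TPM in untransfected replicates 1 to 3. Its lowest value in each group was in one of the libraries that stood apart on the second component, transfected replicate 1 and untransfected replicate 3, and the groups overlapped through the latter. The log2 fold of NAB1 was -0.29 (SE 0.131), and -0.35 (SE 0.0464) with both libraries left out. After median-ratio scaling it was -0.36 (SE 0.0945), after quantile normalization -0.36 (SE 0.0992) and without the mitochondrial and 20 most abundant genes -0.38 (SE 0.0964). Each value lay further below 0, with a smaller SE, than on deposited TPM. The median log2 fold of all tested genes also moved down, from 0.05 to -0.01, -0.01 and -0.03 in that order. Without untransfected replicate 3 alone the NAB1 log2 fold was -0.44, and the part of that library in the NAB1 values was not otherwise tested. NAB2 (ENSG00000166886, chromosome 12, 57088894 to 57095476, plus strand), the feedback member of the pair, was at 7.91, 6.43 and 8.58 TPM in transfected replicates 1 to 3 and at 10.44, 9.05 and 7.42 TPM in untransfected replicates 1 to 3. The NAB2 groups overlapped, with a log2 fold of -0.20 (SE 0.138), or -0.35 without the same pair of libraries. Neither NAB gene had a positive log2 fold under any of the 16 alternative settings tried, which spanned -0.44 to -0.20 for NAB1 and -0.35 to -0.10 for NAB2. Settings that changed only the minimum for testing, the variance model or the replicate block could not alter a fold.

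Of the 5 listed genes, 2 (EGR1 and EGR3) had all transfected values above all untransfected values and 0 the opposite, against 28.6% and 16.3% of all listed genes. Because the same comparison was in view when the genes were chosen, these counts support nothing further.

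**Figure D2:**
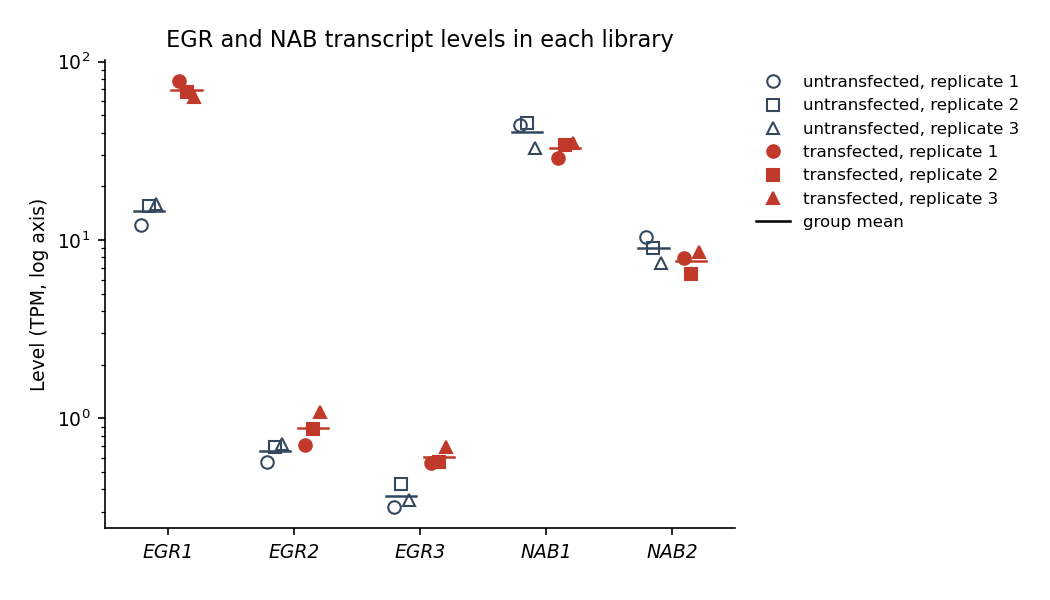
Level of each EGR and NAB gene in TPM (log axis) in 3 untransfected (open) and 3 transfected (filled) libraries, with marker shapes for replicates and lines for group means. EGR1 sits at 63.39 to 77.55 TPM with transfection and 12.16 to 15.98 TPM without it, while the groups overlap for EGR2, NAB1 and NAB2.

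The order of activator and co-repressor transcripts differed between the groups. In untransfected cells NAB1 had the highest level of the 5 genes, followed by EGR1, NAB2, EGR2 and EGR3, and in transfected cells EGR1 came first, then NAB1, NAB2, EGR2 and EGR3. No 2 neighbours in either order had overlapping ranges over their 3 libraries. EGR1 TPM divided by the summed TPM of NAB1 and NAB2 was 0.22, 0.29 and 0.40 in untransfected replicates 1 to 3. The same ratio was 2.11, 1.66 and 1.45 in transfected replicates 1 to 3, so that EGR1 exceeded both co-repressors together in every transfected library and in no untransfected one. Against NAB2 alone, EGR1 was 1.16, 1.72 and 2.15 times as abundant in untransfected and 9.80, 10.53 and 7.39 times in transfected replicates 1 to 3. On the log2(TPM + 1) scale EGR1 lay 0.65 above NAB2 in untransfected and 3.03 above it in transfected cells (means of 3 libraries). The ratio of the NAB genes to each other overlapped between the groups. NAB1 was 4.20, 4.99 and 4.39 times as abundant as NAB2 in untransfected and 3.64, 5.33 and 4.10 times in transfected replicates 1 to 3. Multiplying a library by 1 scaling factor leaves these TPM ratios as they are.

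Both NAB genes overlap a gene on the opposite strand. The last 69 bases of NAB2 overlap STAT6 on the opposite strand, a cytokine-activated transcription factor gene at 22.29, 23.43 and 22.31 TPM with transfection and 29.05, 28.5 and 28.88 TPM without it, in replicates 1 to 3 of each group. STAT6 fell, with a log2 fold of -0.33 and an adjusted p of 0.00471 by limma. Over 15823 bases NAB1 overlaps an antisense RNA on the minus strand, ENSG00000228509, at 1.52, 1.55 and 1.27 TPM in transfected replicates 1 to 3. In untransfected replicates 1 to 3 that RNA was at 0.03, 0.06 and 0 TPM, so its groups were far apart, with a log2 fold of 1.25. It reached the minimum for testing only through the transfected libraries, so no p-value is given for it. The libraries were stranded, but the strand setting of the counting is not given in the sources used here, so exchange of reads between overlapping genes was not tested.

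Upstream of EGR1, most transcripts of the signalling chain did not pass the test. Phosphorylation, through which ERK acts on the SRF partners, was not measured in these RNA data. All 21 listed genes of the ERK cascade, from the EGF receptor to the RSK kinases, were tested, and 4 rose and 3 fell (limma, adjusted p below 0.05). These are 19% and 14.3%, near the 20% and 10.2% of all 16145 tested genes, and the median log2 fold was 0.02 against 0.05 for all tested genes. HRAS, a RAS GTPase, was at 20.4, 20.33 and 19.95 TPM with transfection and 13.67, 16.47 and 14.22 TPM without it, in replicates 1 to 3 of each group, and rose by a log2 fold of 0.43. The kinase gene BRAF rose by 0.38 and the RSK kinase gene RPS6KA2 went from 9.06 ± 0.470 to 6.37 ± 0.259 TPM (mean ± SD, n = 3), a log2 fold of -0.45. The others that passed, named after their values were seen, were ARAF and KSR1, which rose, and the ERK1 gene MAPK3 and RPS6KA1, which fell. The count that rose was 2 after median-ratio scaling, without the mitochondrial and 20 most abundant genes, and with transfected replicate 1 or 3 or untransfected replicate 1 left out, and 5 fell after quantile normalization.

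Of SRF and its partners 1 gene passed. SRF was at 74.17, 66.1 and 70.38 TPM with transfection and 68.5, 67.21 and 68.91 TPM without it, in replicates 1 to 3 of each group, with overlapping groups. ELK1, a ternary complex factor, was at 46.8 ± 1.53 TPM with transfection and 48.5 ± 0.440 TPM without it (n = 3). Of 6 genes tested, limma called 0 higher (1 at an unadjusted p below 0.05) and 1 lower, against 20% and 10.2% of all tested genes. That one, the ternary complex factor gene ELK3, named after its value was seen, had a log2 fold of -0.25. The ELK3 call was lost, for a lower count of 0, on leaving out any of the transfected libraries or untransfected replicate 1 or 2.

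Other immediate-early genes that share the serum response were more often higher than lower. Of 28 tested, 11 rose and 2 fell by limma, 39.3% and 7.14% against 20% and 10.2% of all tested genes, and the median log2 fold was 0.33 against 0.05. FOS, an AP-1 subunit gene, was at 8.65, 7.01 and 8.69 TPM with transfection and 1.73, 3.2 and 2.3 TPM without it, in replicates 1 to 3 of each group, a log2 fold of 1.44. The KLF10 gene, for a zinc finger factor of TGF-beta signalling, was at 36.84, 36.29 and 35.5 TPM with transfection and 13.3, 14.26 and 14.38 TPM without it, in replicates 1 to 3 of each group, a log2 fold of 1.31, and FOSB rose by 0.89. All 3 had every transfected value above every untransfected one. The highest log2 fold in the list, 1.44 for FOS, lay below the 2.18 of EGR1. The members that fell were the ERK phosphatase gene DUSP6 and the antiproliferative gene BTG2, named after their values were seen. The lower count was 1 without transfected replicate 1 and 0 with transfected replicate 2 or 3 or untransfected replicate 1 or 2 left out. Parts of this list had been examined in these libraries before it was drawn up, so its count is not independent evidence.

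**Figure D3:**
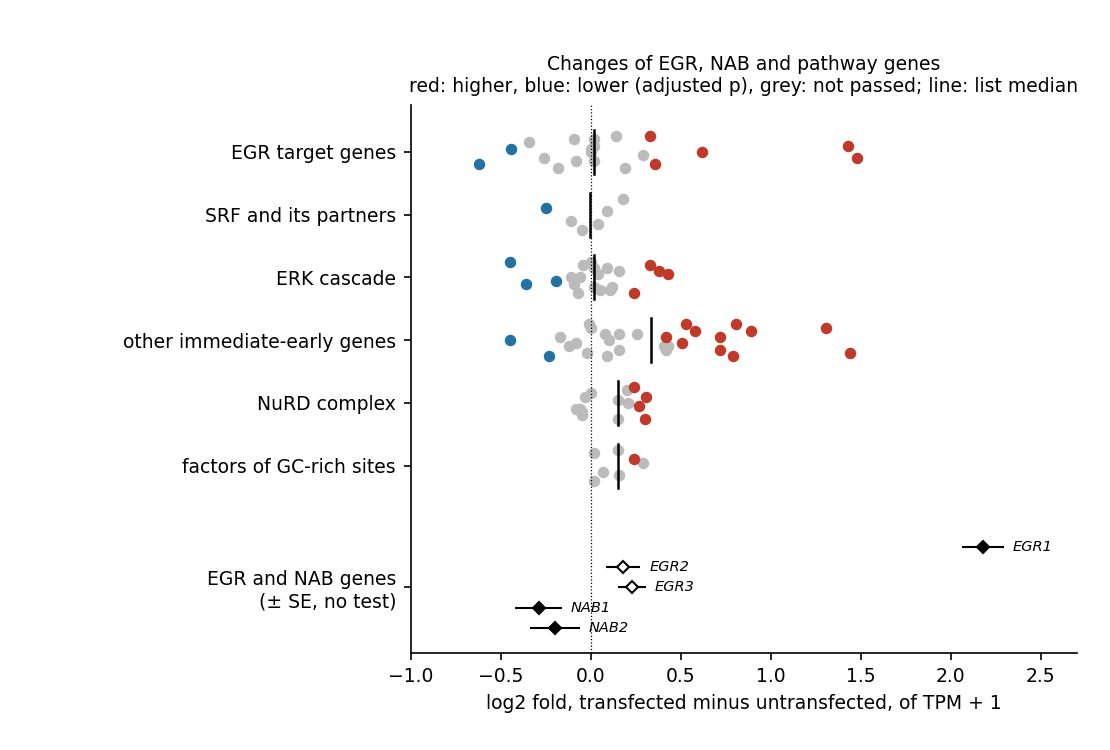
Log2 fold of TPM + 1, transfected minus untransfected, for genes of 6 pathway lists (points, coloured by the limma call; lines, list medians) and for the EGR and NAB genes (diamonds with SE, open where below the minimum for testing). EGR1 lies at 2.18, to the right of every list member, the highest of which is ATF3 at 1.48.

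Downstream, described EGR target genes moved both ways. Of 30 on the list 20 were tested, 5 rose and 2 fell by limma, 25% and 10.0% against 20% and 10.2% of all tested genes, and the median log2 fold was 0.02. ATF3, a stress-induced factor of the ATF family, was at 120.56, 113.06 and 104.57 TPM with transfection and 41.47, 42.95 and 35.42 TPM without it, in replicates 1 to 3 of each group, a log2 fold of 1.48. ARC, a synaptic immediate-early gene, was at 10.32, 7.64 and 8.79 TPM with transfection and 2.82, 2.19 and 2.98 TPM without it, in replicates 1 to 3 of each group, a log2 fold of 1.43. The p53 family gene TP73 rose from 11.1 ± 0.776 to 17.6 ± 0.938 TPM (n = 3), with an adjusted p of 0.00135 by limma. The others that passed, named after their values were seen, were the growth factor gene VEGFA and the adhesion receptor gene CD44, which rose, and ID3, an inhibitor of basic helix-loop-helix factors, and the prostaglandin synthase gene PTGES, which fell. ATF3 and ARC also answer to other signals than EGR proteins.

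Subunit genes of NuRD, the complex that NAB2 recruits, rose in 4 of 14 and fell in 0 by limma (6 and 0 at an unadjusted p below 0.05), with a median log2 fold of 0.15. The share that rose, 28.6%, stands beside 20% of all tested genes, and the lower share beside 10.2%. A remodelling ATPase gene, CHD3, went from 37.5 ± 0.724 to 46.6 ± 2.22 TPM (n = 3), a log2 fold of 0.31. MTA3 rose by a log2 fold of 0.30 and MTA2 by 0.27, and the fourth, named after its value was seen, was GATAD2A. CHD4, also named after its value was seen, did not pass, at a log2 fold of -0.08. Without transfected replicate 3, or without the mitochondrial and 20 most abundant genes, 2 rose, and 2 and 1 fell after quantile normalization and without those abundant genes. Of 7 other factors that bind GC-rich sites, limma called 1 higher, KLF9, named after its value was seen, and 0 lower, and at an unadjusted p below 0.05 there were 4 higher and 0 lower. That is 14.3% higher against 20% of all tested genes. SP1 was at 90.1 ± 2.64 and 81.3 ± 3.44 TPM and MAZ at 362 ± 22.3 and 344 ± 9.80 TPM in transfected and untransfected cells (n = 3), and neither passed. The higher count of this list was 0 with transfected replicate 2 or 3 or untransfected replicate 1 or 2 left out.

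The motifs seen in the EGR and NAB windows were followed to other genes, a step added after the data were seen. Of 159 tested genes with a CArG box in the 250 bases before a start, EGR genes left out, 22.6% were called higher and 10.1% lower, against 21.1% and 10.3% of the 11230 tested genes with any window. SRF was among the 5 tested genes with 2 or more CArG boxes in 1 window, and 1 of these, the zinc finger gene ZNF548, passed, at a log2 fold of 0.44. Of 1301 tested genes with an EGR site, NAB genes left out, 208 were called higher and 186 lower, 16% and 14.3%, with a median log2 fold of 0.02. The balance depended on scaling here and over all genes. After median-ratio scaling 190 were higher and 314 lower (24.2% lower, against 18.8% of tested genes with any window), after quantile normalization 189 and 318 (24.4% against 18.9%), and without the mitochondrial and 20 most abundant genes 172 and 351 (26.5% against 20.6%). On deposited TPM the lower shares were 14.3% and 10.3%. With transfected replicate 2 or transfected replicate 3 left out, 116 and 112 were higher and 101 and 118 lower. The lower count was 106 and 119 without untransfected replicate 1 and 2. For the CArG genes, 22 were higher without either of the same transfected replicates, against 36, and 7 to 10 were lower, against 16, on leaving out any transfected library or untransfected replicate 1 or 2.

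The genes whose library profiles were nearest to that of EGR1 were AMH, H2BC5 and DHRS2. Likeness was the root mean square difference, over the 6 libraries, of log2(TPM + 1) taken relative to the untransfected mean of each gene, among the 12317 genes whose higher group mean reached 5 TPM. It was 0.137 for AMH, the gene of anti-Müllerian hormone, 0.138 for the histone gene H2BC5 and 0.155 for the dehydrogenase gene DHRS2. The Ensembl genes ENSG00000253227 and ENSG00000289286 followed at 0.171 and 0.248. AMH, at 74.36, 65.49 and 60.31 TPM in transfected replicates 1 to 3, had the same order of these libraries as EGR1. So did DHRS2, at 18.23, 16.55 and 16.26 TPM, whereas H2BC5 and the Ensembl genes did not. Nearest to NAB2 were C10orf82 (0.0495), CAMKV (0.0660), KCTD13-DT (0.0697), PPP1R3D (0.0735) and VKORC1 (0.0758). These distances describe 6 libraries in 2 groups and carry no test.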

How the data were processed

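Total RNA libraries of transfected and untransfected HEK293 cells, 3 per group, were prepared with a stranded TruSeq kit, per the labels' protocols. Per the submitters' processing notes, STAR was used with GRCh38. How reads were counted, and with which annotation release, is not given in the sources used here. Deposited values are TPM calculated by the authors; 18298 rows gave 18164 distinct Ensembl IDs, 134 repeats being dropped, and each library summed to 1000000 within 1. Symbols came from a name table (18139 IDs matched) and positions from GENCODE 29 on GRCh38 (17706 IDs).

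The 16145 genes that reached 1 TPM in 3 or more libraries were fitted on log2(TPM + 1) with limma 3.58.1 in R 4.3.3, with group as the only term, a mean-variance trend, two-sided tests and Benjamini-Hochberg adjustment at 0.05. This scale understates changes of low genes. The script was tested on simulated data. The EGR and NAB genes, the gene lists and the motifs were chosen with earlier results of these data known. Named beside the EGR and NAB genes were the 3 largest changes that passed in each list, or its 2 most abundant genes where 0 or 1 passed, the 5 nearest profiles to EGR1 and NAB2, and neighbouring genes. Alternatives were pseudocounts of 0.1 and 5, no minimum, a minimum of 5 TPM, 3 other scalings, a replicate block, a variance model without the trend, and each library left out. A further one, without transfected replicate 1 and untransfected replicate 3, was chosen after seeing the data.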

Additional observations from a re-analysis of the deposited data

How the results depend on the processing

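EGR1, EGR2, EGR3, NAB1 and NAB2 kept the sign of their log2 folds under all 16 alternatives. Those that changed only the minimum for testing, the variance model or the replicate block could not alter a fold or its sign. EGR1 ranged from 1.93 to 2.25, with 1.93 at a pseudocount of 5. With pseudocounts of 0.1 and 5 and quantile normalization, EGR2 was 0.36, 0.06 and 0.07 and EGR3 was 0.60, 0.06 and 0.12, so the size of these folds is limited by their low TPM. With each library left out in turn, the ranges were 2.07 to 2.25 for EGR1, 0.11 to 0.25 for EGR2, 0.20 to 0.27 for EGR3, -0.44 to -0.20 for NAB1 and -0.32 to -0.10 for NAB2. At a pseudocount of 5, EGR1 minus NAB2 was 2.56 in transfected cells, and NAB2 minus NAB1 was -1.58 in transfected and -1.70 in untransfected cells. Ranges with a library left out were 2.94 to 3.17 and 0.46 to 0.87 for EGR1 minus NAB2, and -2.08 to -1.83 and -2.10 to -1.98 for NAB2 minus NAB1, in transfected and untransfected cells.

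Counts moved more, and the cause was not tested. Of all tested genes, 3236 higher and 1644 lower on deposited TPM became 3000 and 2875 after median-ratio scaling, 2930 and 2881 after quantile normalization and 2749 and 3241 without the mitochondrial and 20 most abundant genes. Leaving out 1 library gave 1820 to 2955 higher and 965 to 2027 lower. With median-ratio scaling, quantile normalization and without those abundant genes, CArG genes lower were 33, 34 and 40 and genes with an EGR site lower were 314, 318 and 351. Under median-ratio scaling and without abundant genes, ERK cascade genes higher were 2 each. Under quantile normalization 5 ERK cascade and 2 NuRD genes were lower and 2 factors of GC-rich sites higher. Without abundant genes 2 NuRD genes were higher and 1 lower, and 0 factors of GC-rich sites higher. With a minimum of 5 TPM, which tests fewer genes, 1 EGR target and 1 immediate-early gene were lower, and 1 immediate-early gene was lower without the variance trend. With 1 library left out, the ranges were 4 to 5 higher and 2 to 3 lower for EGR targets, 0 to 1 lower for SRF and its partners, 2 to 4 higher and 2 to 3 lower for the ERK cascade, 11 to 13 higher and 0 to 2 lower for immediate-early genes, 2 to 4 higher for NuRD, 0 to 1 higher for factors of GC-rich sites, 22 to 34 higher and 7 to 20 lower for CArG genes, and 112 to 185 higher and 101 to 212 lower for genes with an EGR site. Without transfected replicate 1 and untransfected replicate 3, 3413 genes were higher and 2098 lower. The higher and lower counts were 39 and 25 for CArG genes and 241 and 227 for genes with an EGR site, and 6 NuRD genes and 3 factors of GC-rich sites were higher.

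Deviations from the group means correlated at -0.184, 0.107 and -0.163 for replicate numbers 1, 2 and 3, which gives no clear sign of pairing by number. The highest correlation across the groups was 0.309, for transfected replicate 1 with untransfected replicate 3, the libraries that stood apart on the second component. With 3 libraries per group these values cannot settle how libraries were paired. With the replicate block the EGR1 log2 fold stayed at 2.18, which a block cannot change in this balanced design, and 2392 genes were higher and 1137 lower. Under the block 2 ERK cascade genes, 2 NuRD genes, 0 factors of GC-rich sites and 136 genes with an EGR site were higher, and 0 of SRF and its partners, 1 immediate-early gene, 9 CArG genes and 117 genes with an EGR site were lower.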

Other observations

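Genes around the EGR and NAB loci that do not overlap them moved in both directions. On chromosome 5, REEP2, an endoplasmic reticulum shaping gene that ends 18521 bases before EGR1, was at 61.0 ± 1.47 TPM with transfection and 71.8 ± 1.91 TPM without it (mean ± SD over 3 libraries), and fell by limma (adjusted p = 0.0135). ETF1, the translation release factor gene 36780 bases beyond EGR1, was at 295 ± 19.3 and 237 ± 27.6 TPM and rose (adjusted p = 0.0341 by limma). Next to NAB2, the nuclear envelope gene NEMP1, 831 bases away on the other strand, was at 127 ± 6.35 and 93.5 ± 9.51 TPM and rose (adjusted p = 0.00614 by limma), while the lipoprotein receptor gene LRP1, 33017 bases away, was at 5.04 ± 0.461 and 6.78 ± 0.179 TPM and fell (adjusted p = 0.0177 by limma). ADO and NRBF2 around EGR2 and BIN3 beside EGR3 did not pass, with log2 folds of 0.03, -0.05 and 0.05. Beyond NAB1, ENSG00000235852 did not pass at a log2 fold of 0.26, and NEMP2-DT, before NAB1, was under the minimum for testing, at 0.76, 1.89 and 1.84 TPM with transfection and 0.7, 0.53 and 0.52 TPM without it, in replicates 1 to 3 of each group. Beyond EGR3, the antisense RNA ENSG00000245025, 291294 bases away, was at 1.34 ± 0.0611 TPM with transfection and 0.360 ± 0.165 TPM without it. This RNA too reached the minimum for testing only through the transfected libraries, so no p-value is given for it.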
